A study of Mus musculus with 15 samples.

Results

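The motor neurons that supply the tibialis anterior (TA), the muscle at the front of the shin that lifts the foot at the ankle, were compared with those of 4 other hind-limb motor pools of the mouse. The TA pool was represented by 3 of the 15 RNA-seq libraries, chosen by their labels. The other 12 libraries, 3 each, came from motor neurons of 4 other muscles or groups: EDL (extensor digitorum longus, which lifts the toes), PL (peroneus longus, at the outer side of the shin), GS (gastrocnemius, in the calf) and IF (the small muscles within the foot). All 5 groups were wild-type mice, so no genotype or drug separated them. Each muscle had been injected with the fluorescent tracer CTB-Alexa 555 at postnatal day 4, which motor axons carry back to their cell bodies, and the traced cells were cut out by laser at postnatal day 6. A library pooled 30 to 40 cells of 2 to 5 animals with at least 250000 µm2 of captured area on 12 µm sections, and cords whose tracer had spread to other muscles were discarded, per the labels. The labels call these libraries biological replicates but tie none to particular animals, so the p-values measure the spread between these pooled libraries.

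A motor pool is the group of motor neurons that supplies 1 muscle, and limb pools lie in the lateral motor column of the spinal cord. During development, Hox and LIM homeodomain factors, surface receptors and adhesion molecules sort these neurons by the muscle they reach. The TA pool belongs to the division of the column whose axons run to dorsal limb muscles, as do the EDL and PL pools, while the GS pool and most of the IF pool send axons to ventral muscles. TA and GS move the ankle in opposite directions.

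Total counts were 7042076, 5775369 and 5993492 in TA 1, TA 2 and TA 3, within the 4417114 to 8488368 of all libraries, and 13092 to 13835 genes had a read in a TA library. PL 2 and PL 3 stood apart: the share of tested genes without a read was 25.7% and 29.2% there, and 9.76% to 13.7% in TA. Levels below are CPM (read counts scaled to a common library size, with TMM, which adjusts library sizes to each other), listed for libraries 1, 2 and 3 in order. Levels of different genes are not compared, because CPM is not divided by gene length. The neurofilament gene Nefm (68263, 50929 and 22609 CPM in TA), the choline transporter gene Slc5a7 (1336, 1173 and 1817), Chat, which codes for the enzyme that makes acetylcholine (93.1, 149.5 and 222), and peripherin, Prph (946, 899.7 and 384), were present in every TA library. All 4 are among 21 tested genes listed for motor neuron identity, of which 3, Isl1 among them, had no read in any TA library. Isl1, a LIM homeodomain factor kept by motor neurons of ventral limb muscles, had no read in TA or PL and 0, 0.566 and 0 CPM in EDL, while it was at 52.6, 94.1 and 51.4 CPM in GS and 76.1, 115 and 100.4 CPM in IF.

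The main comparison set TA against the mean of the log levels of the 4 other pools. Of 14340 genes tested, 60 (0.418%) were called, that is, had a Benjamini-Hochberg adjusted p under 0.05 in edgeR's quasi-likelihood test: 41 higher (0.286%) and 19 lower in TA (0.132%). The genes higher in TA included a relaxin receptor, secreted signalling proteins, a potassium channel subunit and adhesion molecules. Those lower included a heparan sulfate enzyme, a netrin receptor family member and an adhesion molecule of the IgLON family. In 18 of the 41 the lowest TA library lay above all 12 others, and in 14 of the 19 the highest TA library lay below all 12. Over all tested genes, 91 (0.635%) and 80 (0.558%) had TA libraries apart in those ways, 1.19% in all. Omitting 1 library shifted the number of calls by over 1.5 times for 13 of the 15: it was 27 without TA 1, 32 without TA 2, 29 to 35 without EDL 3 or EDL 2, 33 to 38 without a GS library, 22 to 29 without an IF library, and 246, 113 and 115 without PL 1, PL 2 and PL 3. Of the 60 calls, 15 were kept whichever single library was omitted: those of Vstm2a, Rxfp1, Sostdc1, Parm1, Kcng1, Ncam2, Calca, Aldh1a2, Hs3st4, Negr1, Unc5d, Clip4, Lxn and Pcp4l1, and of 1 clone name.

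Vstm2a, Hs3st4 and Negr1 were the named genes that kept their call in every alternative run, and the 1 other such gene carries a clone name and is counted only. The 250 bases before their start sites are shown because these genes carry the steadiest differences in either direction. Sequences are from RefSeq on GRCm38.p6, all on the plus strand, and capitals mark the GC box (GGGCGG, or CCGCCC on the other strand). Of 37 called genes named by rule, 25 had an entry in the promoter table.
Vstm2a, chr11:16257492-16257741: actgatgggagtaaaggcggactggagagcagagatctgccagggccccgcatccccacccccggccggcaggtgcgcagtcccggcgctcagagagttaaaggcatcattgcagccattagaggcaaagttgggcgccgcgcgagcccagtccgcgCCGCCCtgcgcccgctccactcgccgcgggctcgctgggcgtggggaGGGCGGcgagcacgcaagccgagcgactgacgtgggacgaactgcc
Hs3st4, chr7:123982578-123982827: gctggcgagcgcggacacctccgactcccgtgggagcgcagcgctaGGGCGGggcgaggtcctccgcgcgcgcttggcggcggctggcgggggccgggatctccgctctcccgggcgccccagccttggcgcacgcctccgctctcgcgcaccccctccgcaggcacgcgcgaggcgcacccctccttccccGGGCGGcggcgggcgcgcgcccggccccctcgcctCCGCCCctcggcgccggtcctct
Negr1, chr3:156561544-156561793: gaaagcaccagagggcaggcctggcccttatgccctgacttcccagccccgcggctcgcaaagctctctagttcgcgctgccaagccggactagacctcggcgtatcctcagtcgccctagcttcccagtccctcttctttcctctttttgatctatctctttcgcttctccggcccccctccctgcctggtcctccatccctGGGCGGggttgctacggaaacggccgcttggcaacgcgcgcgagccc
The GC content of these windows was 70.0%, 82.0% and 63.6%, against a median of 52.4% over the 32851 promoters of the table, and they held 28, 43 and 19 CpG pairs against a median of 6. All 3 held a GC box, as did 32.7% of all promoter windows of that length. None of the 3 held the core homeodomain motif TAATTA, which 4.84% of all windows held. The window of Parm1, examined too, held no GC box, with a GC content of 65.2% and 11 CpG pairs. Shares over the promoters of tested genes alone were not counted. Motif matches were sought on both strands and are a description of the letters only.

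Among genes higher in TA, Vstm2a codes for a protein with an immunoglobulin V-set domain (mm9 chr11:16157727-16327314 in the deposited table). Its level was 589.7, 516 and 843 CPM in TA, 272, 174 and 129 in EDL, 117, 119.8 and 73.2 in PL, 102, 212 and 196 in GS and 70.1, 78.5 and 70.6 in IF. Every TA library lay above every other library, and EDL and GS overlapped as the next pools. The log2 fold change was 2.38 ± 0.26 (SE) against the other pools together, 2.65 ± 0.40 against PL and 3.15 ± 0.41 against IF, with Benjamini-Hochberg adjusted p = 0.000424, 0.0036 and 0.000653 in edgeR's quasi-likelihood test. Against EDL (1.76 ± 0.38) and GS (1.94 ± 0.39) the test did not pass, with adjusted p = 0.106 and 0.0886. Its relatives Vstm2b (1.52 ± 0.63) and Vstm2l (0.51 ± 0.66) were not called.

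Rxfp1 codes for a G protein-coupled receptor of the hormone relaxin (mm9 chr3:79448638-79541717). It was at 20.0, 3.07 and 31.3 CPM in TA, 313 reads in all, while the 12 other libraries held 1 read, in GS 3. The ratio of reads, scaled for library size, was 1571 with a 95% counting interval of 280 to 62238, which covers counting error only. With the reads of its 3 libraries pooled, TA was at least 155-fold above EDL, 103-fold above PL and 151-fold above IF. The floor of a pool with no read was taken as 3 reads, and these folds leave out the spread between TA libraries. All TA libraries lay above the 12 others, with TA 2 far below TA 1 and TA 3. The edgeR quasi-likelihood test against the other pools gave a Benjamini-Hochberg adjusted p of 0.00508, and no single pool passed it, the adjusted p running from 0.0922 against IF to 0.462 against GS. DESeq2 did not call it. Of the 9 genes of the relaxin family and its receptors, Rxfp1 was the 1 with enough reads to be tested. It passed the low-count filter through the TA libraries alone, so its being tested does not add to the difference.

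Sostdc1 codes for a secreted antagonist of bone morphogenetic proteins that also acts on Wnt signalling (mm9 chr12:37040756-37045040). It was at 89.9, 27.6 and 25.1 CPM in TA, 10.7, 15.2 and 11.4 in GS and 2.14, 7.75 and 3.76 in IF. PL held reads in 1 library (0.975, 0 and 0 CPM) and EDL held none. With their reads pooled, the TA libraries were at least 409-fold above EDL by the same floor. All TA libraries lay above the rest, with TA 1 more than 3 times TA 2 and TA 3. The edgeR quasi-likelihood test gave a Benjamini-Hochberg adjusted p of 0.00256 against the other pools and 0.0293 against EDL, but 0.842 against GS and 0.292 against IF. Bmper, a secreted protein that binds bone morphogenetic proteins, was lower in TA, at 7.12, 5.06 and 14.1 CPM against 25.4 to 224 in the 12 other libraries. Its log2 fold change was -3.37 ± 0.58, with a Benjamini-Hochberg adjusted p of 0.0125 by edgeR's quasi-likelihood test. The call was lost without TA 1 or TA 2 and by limma voom. Of 30 tested genes of these 2 pathways no other was called, and 18 (60%) lay above 0 with a median log2 fold change of 0.25. Over all tested genes 0.418% were called and 52.7% lay above 0, with a median of 0.06.

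Parm1, which codes for a mucin-like membrane protein (mm9 chr5:91946641-92055921), was at 1203, 719 and 806 CPM in TA and 424, 503 and 558 in PL, the next pool. The remaining 9 libraries lay lower, between 113 CPM (GS 1) and 314 CPM (EDL 1). Its log2 fold change was 1.67 ± 0.23 against the other pools together, 2.13 ± 0.34 against GS, 2.03 ± 0.34 against IF and 0.88 ± 0.33 against PL. By edgeR's quasi-likelihood method the adjusted p (Benjamini-Hochberg) was 0.00234 together, 0.0148 for GS and 0.00574 for IF, but 0.205 for PL and 0.0693 for EDL.

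Kcng1 codes for a modulatory potassium channel subunit that forms channels only together with other subunits. It was at 35.1, 5.96 and 127 CPM in TA and 8.25, 21.7 and 12.4 in IF, had no read in PL, and did not exceed 21.7 CPM in any of the other libraries (IF 2). TA 2 lay below all 3 IF libraries, so the groups overlapped, and TA 3 was over 3 times TA 1. By edgeR's quasi-likelihood method the adjusted p (Benjamini-Hochberg) was 0.00234 against the pools together, 0.0206 against PL and 0.616 against IF. With their reads pooled, the TA libraries were at least 317-fold above PL by the same floor, leaving out the spread between them. Of 48 tested potassium channel genes Kcng1 was the 1 called, while 35 (72.9%) lay above 0, with a median log2 fold change of 0.33. Over all tested genes 0.418% were called and 52.7% lay above 0, with a median of 0.06.

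Ncam2, a neural cell adhesion molecule, was singled out after its values were seen, being the 1 gene of the 41 called against 3 single pools. Its level was 996, 660.2 and 777 CPM in TA, 569.8, 643 and 738 in PL, 254, 222 and 195 in EDL, 108, 163 and 190.2 in GS and 183, 193 and 202 in IF. TA and PL overlapped, and both lay above all libraries of the 3 other pools. The log2 fold change was 1.66 ± 0.21 against all, 1.86 ± 0.30 against EDL, 2.40 ± 0.30 against GS and 2.07 ± 0.30 against IF, but 0.32 ± 0.29 against PL. Benjamini-Hochberg adjusted p-values from edgeR's quasi-likelihood test were 0.00135, 0.0178, 0.00348, 0.00175 and 0.595 in that order.

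**Figure D1:**
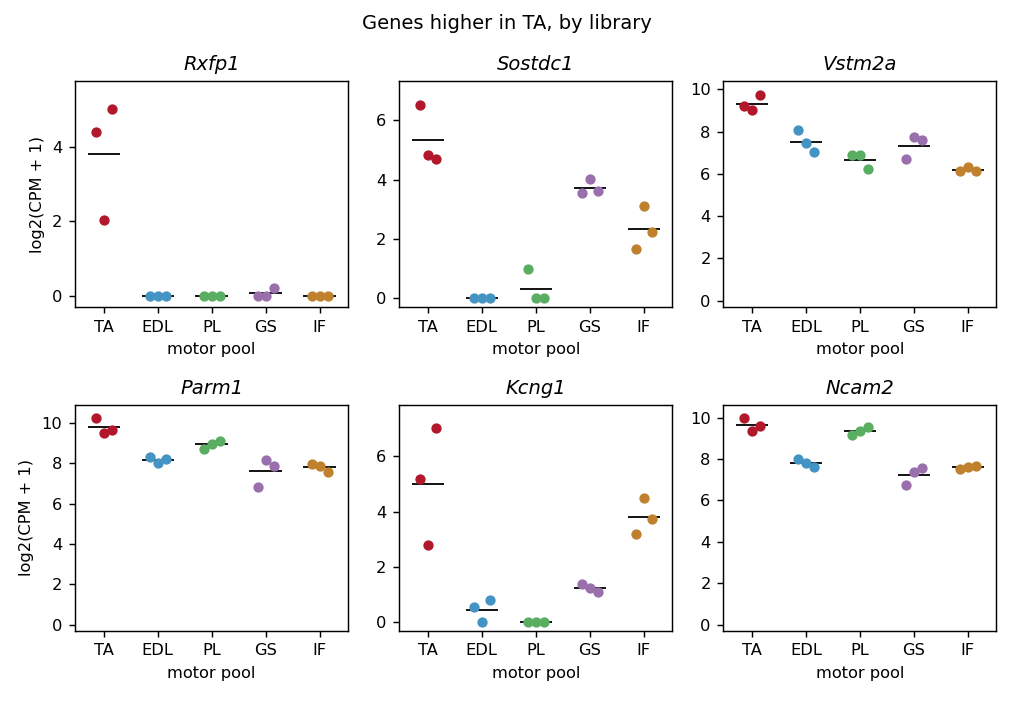
Levels of 6 genes called higher in TA, as log2(CPM + 1) on the vertical axis for each motor pool on the horizontal axis; each point is 1 library and each bar the mean of 3. The TA libraries of Rxfp1, Sostdc1, Vstm2a and Parm1 lie above the 12 others, while Kcng1 overlaps with IF and Ncam2 with PL.

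Genes higher in TA that code for enzymes, growth factors and matrix proteins came next. Maob, which codes for monoamine oxidase B, was at 56.3, 26.5 and 14.4 CPM in TA and at most 1.88 in the 12 others. All TA libraries were above the rest, and the call (log2 fold change 6.12 ± 0.97, Benjamini-Hochberg adjusted p = 0.00526 by edgeR's quasi-likelihood test) was lost without TA 1, at an adjusted p of 0.063. Pdgfd, a platelet-derived growth factor, was at 73.8, 107 and 94.6 CPM in TA, 22, 69.6 and 69.1 in PL and no higher than 25.3 in EDL, GS and IF. TA 1 lay just above the 2 highest PL libraries (0.78 ± 0.68 against PL), and IF was the 1 single pool it was called against (3.47 ± 0.75). The call against the mean (2.62 ± 0.47, adjusted p = 0.0158 by edgeR's quasi-likelihood test with Benjamini-Hochberg adjustment) was lost without TA 2, TA 3 or IF 1, and with EDL or IF out of the mean. Inhba, which codes for the subunit of activin A, was at 80.7, 17.5 and 51.7 CPM in TA, with EDL 1 at 25.5 and the 11 others at most 4.07. Vcan, the matrix proteoglycan versican, was at 251, 90.3 and 194 CPM in TA and reached 98.6 in PL 3. Both overlapped with the other pools through TA 2. Inhba (4.26 ± 0.92) lost its call without 11 of the 15 libraries, and Vcan (2.08 ± 0.38) without TA 1, TA 3, IF 1 or IF 3 or with IF out of the mean, in the edgeR test with Benjamini-Hochberg adjusted p = 0.0471 and 0.0184.

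Regulators of transcription and of signalling inside the cell were also among the genes higher in TA. Nfia, a transcription factor of the nuclear factor I family, was at 2020.5, 1743 and 2172 CPM in TA and at most 1449 elsewhere (log2 fold change 1.13 ± 0.20). Psd3, an exchange factor for the small GTPase Arf6, was at 1086, 955 and 1049 CPM in TA against 309 to 632 (1.07 ± 0.20). Cd47, a membrane protein that binds integrins and signals to phagocytes, was at 944, 913 and 896 CPM against 221 to 729 (1.07 ± 0.19). In these 3 genes all TA libraries lay above the 12 others, and the TA libraries lay close together. Gng12, a G protein subunit, was at 661, 339.7 and 489 CPM against 132 to 284 (1.21 ± 0.23), and Nab2, a corepressor of Egr transcription factors, at 30.0, 97 and 35 against at most 16.2 (5.21 ± 0.99). In these too every TA library lay above the 12 others. The teneurin gene Odz1 (now Tenm1) was at 327, 257 and 423 CPM against 50.7 to 221 (1.46 ± 0.31). Nostrin, which binds nitric oxide synthase, was at 12.7, 5.42 and 18.5 CPM and at most 1.25 elsewhere. Benjamini-Hochberg adjusted p-values by edgeR's quasi-likelihood method were 0.0158 for Nfia, 0.0184 for Psd3, 0.0158 for Cd47, 0.0213 for Gng12, 0.0229 for Nab2, 0.0455 for Odz1 and 0.0229 for Nostrin. Calls were lost without TA 1 or TA 3 for Nfia, without TA 1, TA 2, TA 3 or IF 3 for Cd47, without TA 1, TA 2, TA 3, IF 1, IF 2 or IF 3 for Psd3, and without 5 to 11 of the 15 libraries for the other 4. Nfia, Cd47 and Gng12 were called against IF alone among single pools, and these 3 and Nab2 also lost their call with IF out of the mean. Psd3, called against EDL alone, lost its call with EDL out. Odz1 lost it with EDL, PL or GS out, Nostrin with PL or GS out, and Nab2 with GS out as well. Tshz2, a zinc finger factor (100.2, 158 and 146 CPM in TA, at most 63.2 elsewhere), overlaps a gene model on the opposite strand that was also called. Its own call (Benjamini-Hochberg adjusted p = 0.0335 in edgeR's test) was lost without 12 of the 15 libraries. The library kit does not mark strand, so the 2 cannot be told apart.

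The calls of 4 genes with known roles in motor neuron identity or in peptide signalling turned on single pools. Aldh1a2, which makes retinoic acid, was at 622, 479 and 379 CPM in TA, 545, 906 and 786 in PL and 3.77, 4.37 and 1.45 in IF. Calca, from which calcitonin gene-related peptide is made, was at 1247, 1455 and 894 CPM in TA and 93.7, 116 and 78.3 in IF, and the homeobox gene Hoxc10 at 475, 338 and 295 and 8.86, 15.2 and 11.7. These 3 were called against IF alone among single pools (log2 fold changes 7.25 ± 0.53, 3.64 ± 0.38 and 4.95 ± 0.57) and lost their call when IF was left out of the mean. Hoxc10 also lost it when any TA library, EDL 2, EDL 3, IF 1 or IF 3 was omitted. The Benjamini-Hochberg adjusted p from edgeR's test against the mean was 0.00241 for Aldh1a2, 0.00241 for Calca and 0.0229 for Hoxc10. Sst, the precursor of somatostatin, was at 897, 1089 and 779 CPM in TA, 108, 55.3 and 58 in EDL, 47.3, 154 and 71.3 in PL and 936, 2342 and 2005 in GS. TA lay above EDL and PL and overlapped with GS, whose 2 highest libraries exceeded all TA libraries. It was called against EDL (3.64 ± 0.46) and PL (3.35 ± 0.46), and its call against the mean was lost without TA 2 or with EDL or PL out of the mean. Among 20 tested neuropeptide precursors Calca and Sst were the 2 called, with 9 above 0, and among 23 Hox genes and cofactors Hoxc10 was the 1, with 14 above 0. Of 15 retinoid genes Aldh1a2 was the 1 called, with 9 above 0. The shares above 0 were 45% of the neuropeptide, 60.9% of the Hox and 60% of the retinoid genes, against 52.7% of all tested genes, of which 0.418% were called.

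In 13 of the 41 genes higher in TA, 1 TA library held more than 3 times the CPM of the next. That library was TA 1 in 9 genes and TA 3 in 4. Arhgap33, the 1 gene in all 4 of the authors' deposited lists of genes higher in TA than in another pool, was at 662, 118 and 10.4 CPM. TA 3 lay below libraries of 4 other pools, since the 12 others reached 44.9 CPM, and its call (Benjamini-Hochberg adjusted p = 0.037 in edgeR's test) was lost without 11 of the 15 libraries. Dpp4, a membrane peptidase, was at 81.1, 5.06 and 0.352 CPM, and Pkhd1, which codes for fibrocystin, at 0.509, 0.903 and 68.1. The call of Dpp4 was lost without TA 1 and that of Pkhd1 without TA 3, among others. Arhgap33, Dpp4 and Pkhd1 were not called by limma voom.

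Hs3st4 adds a sulfate group to heparan sulfate, the sugar chain that binds many growth factors at the cell surface (mm9 chr7:131126383-131542504). It was at 4.41, 3.25 and 0.879 CPM in TA, 87.8, 82.3 and 68.1 in EDL, 163, 250.1 and 29.3 in PL, 58, 88.9 and 144 in GS and 114, 107 and 106 in IF. All TA libraries lay below the lowest of the 12 others, PL 3, which was the only other library under 50 CPM. It was the 1 gene called against each of the 4 pools, with log2 fold changes of -4.79 ± 0.75 (EDL), -5.68 ± 0.78 (PL), -5.08 ± 0.76 (GS) and -5.25 ± 0.77 (IF). Benjamini-Hochberg adjusted p-values by edgeR's quasi-likelihood method were 0.0171, 0.00196, 0.00939 and 0.00182 for them and 0.00234 for the mean of the pools (-5.20 ± 0.73). It was also the 1 gene in all 4 of the authors' deposited lists of genes lower in TA. The ratios of its listed signals, whose scale differs between lists, ran from 28.3 (EDL over TA) to 49.3 (PL over TA). Another enzyme of this pathway, Ndst4, which starts sulfation of the chain, was higher in TA at 60.2, 137 and 111 CPM (2.03 ± 0.42, Benjamini-Hochberg adjusted p = 0.037 by edgeR). Its only called pair was with EDL (2.32, 2.26 and 8.03 CPM), it overlapped with PL (56.3, 123 and 68.2) and GS (62.6, 56.2 and 62.5), and it lost its call without 11 of the 15 libraries. No other of the 21 tested heparan sulfate enzymes was called, and 10 (47.6%) lay above 0. The shares over all tested genes were 0.418% called and 52.7% above 0.

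Negr1, an adhesion molecule of the IgLON family (mm9 chr3:156224758-156979410), was at 81.2, 73 and 121 CPM in TA against 419, 213 and 264 in EDL, 464, 688 and 649 in PL, 244, 435 and 480.1 in GS and 655, 653 and 738 in IF. No TA library reached the lowest of the others, EDL 2. Its log2 fold change was -2.34 ± 0.32 against the mean, -2.71 ± 0.36 against PL, -2.07 ± 0.35 against GS and -2.89 ± 0.36 against IF, while -1.70 ± 0.35 against EDL did not pass. By edgeR's quasi-likelihood method the adjusted p (Benjamini-Hochberg) was 0.00234, 0.00196, 0.0259, 0.000518 and 0.0693 in that order. The 4 other IgLON genes were not called, with log2 fold changes of 0.88 ± 0.33 for Opcml, 0.77 ± 0.28 for Iglon5, 0.33 ± 0.25 for Lsamp and 0.23 ± 0.37 for Ntm.

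Unc5d, a receptor of netrins and of Flrt proteins that steers axons and migrating cells (mm9 chr8:29757189-30329811), was at 0.848, 13 and 5.98 CPM in TA and at least 36.9 CPM in the 12 others, the lowest of which were the GS libraries. Log2 fold changes were -3.99 ± 0.70 against EDL, -4.84 ± 0.73 against PL and -5.00 ± 0.73 against IF, all called, and -2.82 ± 0.67 against GS, which was not (Benjamini-Hochberg adjusted p = 0.266 in edgeR's test). Of 17 tested genes for netrins, Flrt proteins and their receptors it was the 1 called, with 6 (35.3%) above 0. Cdh12, a type II cadherin, was at 20.0, 74.9 and 20.4 CPM in TA, overlapped with EDL (41.8, 50.4 and 56.6), and was called against PL (-2.75 ± 0.52) and IF (-3.14 ± 0.53). It was the 1 of 15 tested cadherins called, with 6 (40%) above 0. Of all tested genes, 0.418% were called and 52.7% lay above 0. The call of Cdh12 (adjusted p = 0.0335 by edgeR's quasi-likelihood test with Benjamini-Hochberg adjustment) was lost without 9 of the 15 libraries and by limma voom. Lrrn3, a leucine-rich repeat membrane protein, was at 58.3, 50.2 and 25.9 CPM against 89.3 to 249, the 1 of the 19 lower genes called against no single pool. Its call against the mean (Benjamini-Hochberg adjusted p = 0.037 in edgeR's test) was lost without 12 of the 15 libraries and by limma voom.

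Among the other lower genes, Clip4, a protein with domains that bind microtubules, was at 7.80, 7.22 and 8.27 CPM in TA and 42 to 180.5 in the 12 others. The TA libraries lay close together and far below the rest. Lxn, an inhibitor of carboxypeptidases, was at 6.61, 6.86 and 14.8 CPM in TA, 23.5, 20.1 and 16.8 in GS, 35.3, 42.5 and 35.9 in EDL, 93.6, 247 and 168 in PL and 284, 329 and 311 in IF. TA 3 came close to GS 3, and Lxn was called against PL and IF but not against GS (-1.10 ± 0.45) or EDL (-2.01 ± 0.46). Benjamini-Hochberg adjusted p-values by edgeR's quasi-likelihood method were 0.00526 for Clip4 (-3.21 ± 0.52) and 0.00239 for Lxn (-3.08 ± 0.44). Pcp4l1, a small calmodulin-binding protein chosen after its values were seen, was at 10.9, 37.9 and 11.6 CPM in TA and 35.8, 14.6 and 24.3 in EDL, but at 259 to 959 in PL, GS and IF. It did not separate TA from EDL (-0.31 ± 0.52) and was called against the 3 others. Clip4, Lxn and Pcp4l1 were not called against the mean by limma voom.

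Several lower genes act in receptor signalling and excitability. Adrbk2 (now Grk3), a kinase that turns off G protein-coupled receptors, had 2 reads in the 3 TA libraries and 2895 in the 12 others, 288 times as many once scaled for library size (95% counting interval 79.8 to 2383), though PL 3 held a single read. Lypd1, a membrane-anchored modulator of nicotinic receptors, was at 27.6, 9.03 and 2.81 CPM in TA and up to 763 in PL (-3.51 ± 0.63). Uts2d (now Uts2b), the precursor of a urotensin-related peptide, was at 1.36, 3.07 and 14.8 CPM against 46.7 to 449.9 (-3.95 ± 0.69). For Lypd1 and Uts2d every TA library lay below all others, while for Adrbk2 the 1 read of PL 3 matched the 1 read each of TA 1 and TA 2. Scn9a, a voltage-gated sodium channel, was at 52.6, 37.7 and 38 CPM in TA, overlapped with GS 3 (34.9 CPM), and was the 1 called of 32 tested sodium, calcium and HCN channel genes (-1.92 ± 0.39). Of these 32, 19 (59.4%) lay above 0, where 52.7% of all tested genes did and 0.418% were called. Serpini1, a protease inhibitor released by neurons, was at 96.7, 68.8 and 61.9 CPM against 127 to 374 (-1.57 ± 0.32). By edgeR's quasi-likelihood method the adjusted p (Benjamini-Hochberg) was 0.0198 for Adrbk2, 0.0158 for Lypd1, 0.0139 for Uts2d, 0.0339 for Scn9a and 0.0339 for Serpini1. The calls of Scn9a and Serpini1 were lost without 11 of the 15 libraries each, that of Adrbk2 without TA 1, TA 2, TA 3 or IF 1, that of Uts2d without TA 1 or TA 2, and that of Lypd1 without TA 2. Limma voom did not call Lypd1, Scn9a or Serpini1.

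**Figure D2:**
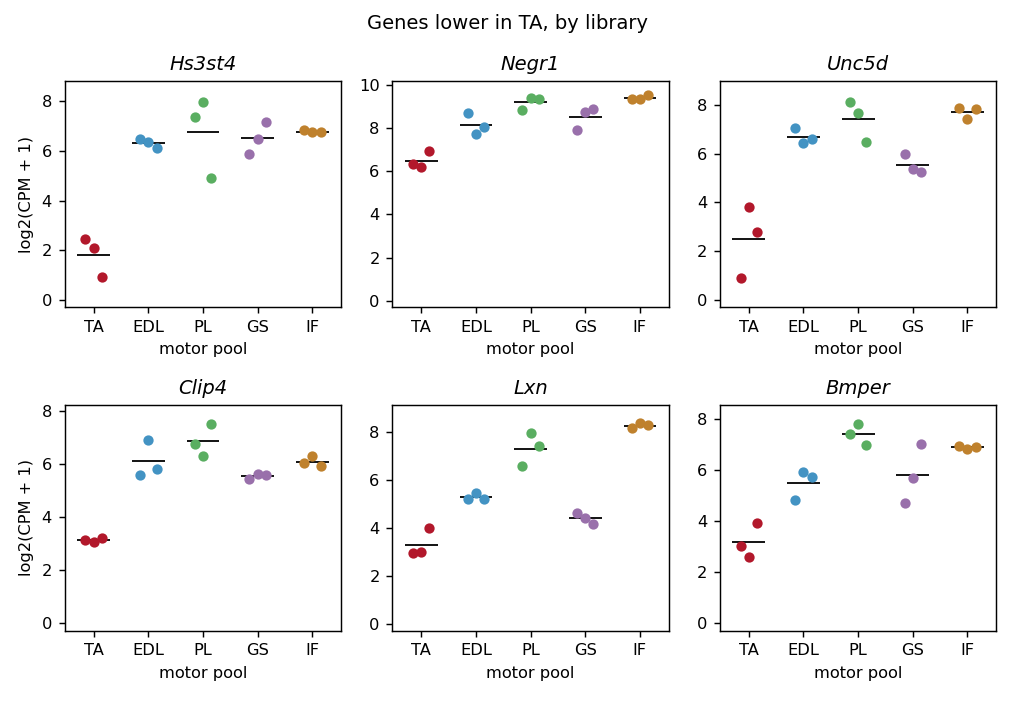
Levels of 6 genes called lower in TA, as log2(CPM + 1) on the vertical axis for each motor pool on the horizontal axis; each point is 1 library and each bar the mean of 3. In all 6 genes the 3 TA libraries lie below the 12 others, and for Lxn the GS pool is the nearest.

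The 4 single-pool comparisons, from the same fit, showed which pools the calls rested on. TA differed from IF in 90 genes (0.628%), of which 55 were higher in TA (0.384%) and 35 lower (0.244%). It differed from PL in 33 (0.23%), 9 higher (0.0628%) and 24 lower (0.167%), from EDL in 13 (0.0907%), 6 higher (0.0418%) and 7 lower (0.0488%), and from GS in 9 (0.0628%), 5 higher (0.0349%) and 4 lower (0.0279%). With upper-quartile scaling the split was 38 higher and 41 lower for IF, 5 and 9 for EDL, and 5 and 6 for GS. These comparisons share the TA libraries. Rank correlations between libraries of 1 pool were at least 0.953 in IF, 0.845 in EDL, 0.835 in GS and 0.657 in PL. What this contributed to the number of calls against each pool was not tested. Of the 41 genes higher in TA, 21 were called against no single pool, 16 against 1, 3 against 2 and Ncam2 against 3, and 14 of the calls were against IF. Of the 19 lower genes, 1 was called against none, 5 against 1, 6 against 2, 6 against 3 and Hs3st4 against all 4, with 16 called against IF and 14 against PL. TA was the pool with the highest mean in 39 of the 41 higher genes, Sst and Aldh1a2 being the exceptions, and the pool with the lowest mean in all 19 lower genes. Over all tested genes the shares were 22.6% highest and 22% lowest. Calling genes by TA against the other pools itself favours such ranks. Leaving IF out of the mean left 28 genes called, 27 of them among the 60. These counts moved with single libraries. Against IF there were 37, 36 and 38 calls when IF 1, IF 2 or IF 3 was omitted, and 145 and 188 when PL 2 or PL 3 was. Against PL, omitting PL 1, PL 2 or PL 3 gave 1800, 76 and 72. Against EDL the number fell to 3 when TA 1 or EDL 1 was omitted, 2 for EDL 2, 5 for EDL 3, IF 1, IF 2 or IF 3, 6 for GS 3 and 8 for TA 2, and rose to 31 for PL 2 and 32 for PL 3. Against GS it was 2 for TA 1, 4 for GS 3 and 21 for PL 3.

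**Figure D3:**
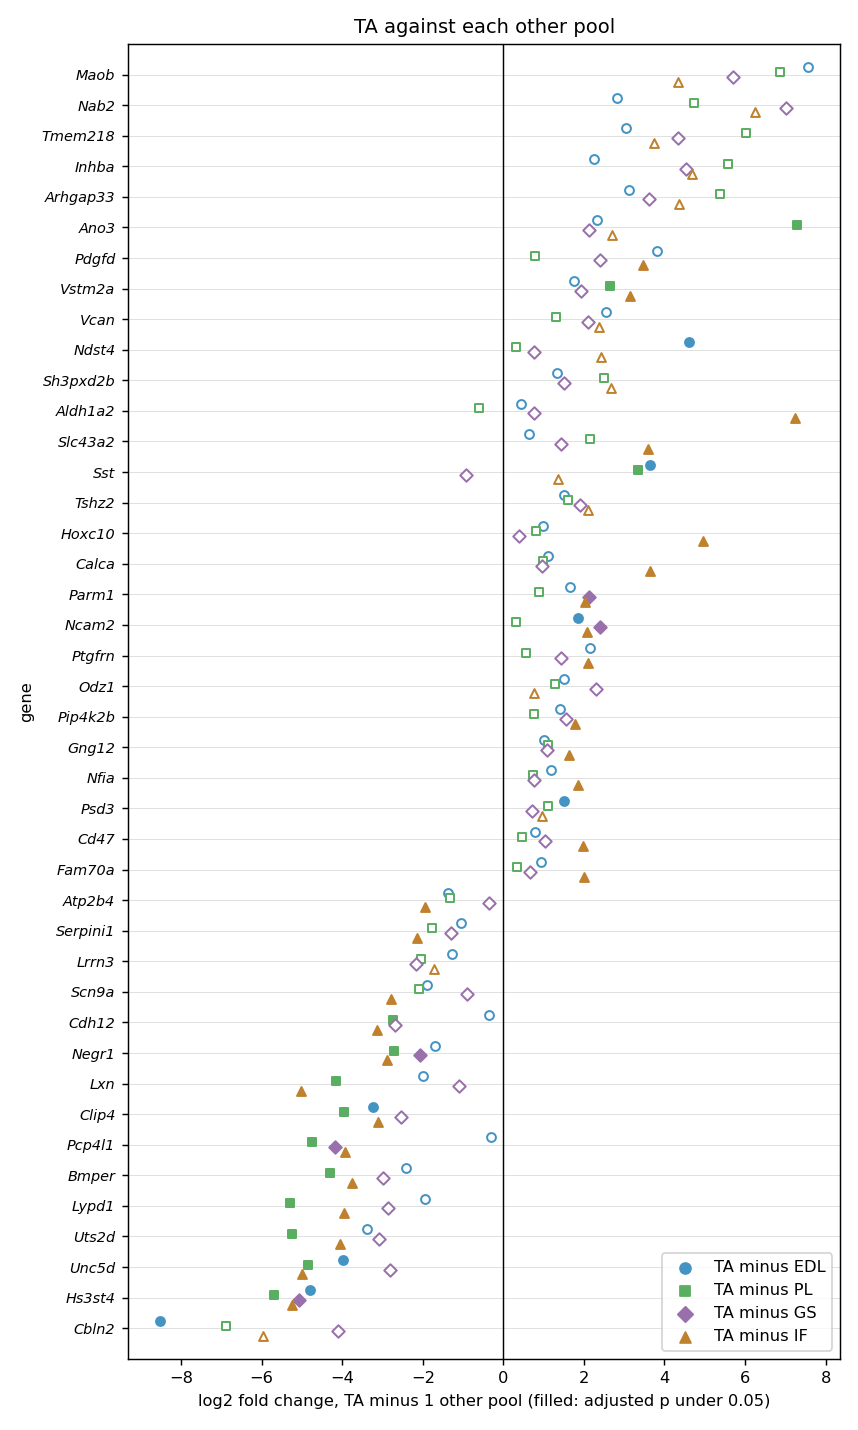
Log2 fold change of TA minus each other pool (horizontal axis; circle EDL, square PL, diamond GS, triangle IF) for 42 called genes with at least 4 reads in every pool and no clone name (vertical axis); filled marks have an adjusted p under 0.05 in edgeR's quasi-likelihood test. Hs3st4 has 4 filled marks, Aldh1a2, Hoxc10 and Calca are farthest from 0 and filled against IF alone, and Pcp4l1 and Cdh12 lie near 0 against EDL.

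The authors' deposited lists of genes higher in 1 pool than in another were made from the same libraries. They come from another test, DESeq, and some of their genes were not among those tested here, so the shares below set unlike calls side by side. The lists also differ from each other in the scale of their signals: Hs3st4 in TA stands at 49 with PL and at 18.74 with IF. What this contributed to the shares was not tested. For TA they hold 20 genes higher than EDL, 11 higher than PL, 21 higher than GS and 63 higher than IF, and 24, 43, 20 and 43 lower. The calls made here covered 4 of the 20 (20.0%), 3 of the 11 (27.3%), 5 of the 21 (23.8%) and 30 of the 63 (47.6%) higher genes, which were 66.7%, 33.3%, 100% and 54.5% of the calls of the same pair and direction. Of the lower genes they covered 5 of 24 (20.8%), 8 of 43 (18.6%), 4 of 20 (20.0%) and 28 of 43 (65.1%), or 71.4%, 33.3%, 100% and 80.0% of the calls. Across the authors' deposited lists, 74 genes were higher in TA than 1 pool, 17 than 2, 1 than 3 (Kcng1) and 1 than all 4 (Arhgap33). Lower in TA were 93 genes than 1 pool, 12 than 2, 3 than 3 (Unc5d, Pcp4l1 and Fign) and Hs3st4 than all 4.

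RNA of neighbouring cells can enter a captured area, and fewer cells of a type and less RNA per cell cannot be told apart in such libraries. Of 19 tested oligodendrocyte markers 17 (89.5%) lay above 0 in TA, against 52.7% of all tested genes, with a median log2 fold change of 1.33, and none was at 0 in all TA libraries. An unadjusted p under 0.05 was found for 6 of the 19, against 12.3% of all tested genes. Mog, a myelin surface protein, was the 1 called (Benjamini-Hochberg adjusted p = 0.0335 in edgeR's test; 1 marker by DESeq2, 0 by limma voom), with 0, 11.4 and 42.6 CPM in TA, at most 6.18 elsewhere and none in EDL. It was at 0 in TA 1 and lost its call without 11 of the 15 libraries. The markers summed to 839.9 CPM in TA 1, 952.3 in TA 2 and 1781 in TA 3, within the range of 275.4 (IF 3) to 2552 (PL 2) of the others, and above 11 of those 12 libraries in TA 2 and TA 3. TA 1, with the smallest sum, was the highest TA library for 21 of the 41 genes higher in TA, among them Sostdc1, Parm1 and Ncam2. TA 3, with the largest sum, was the highest for 13, among them Vstm2a, Rxfp1, Kcng1, Nfia, Nostrin, Odz1, Pkhd1 and Mog. TA 2 was the highest for 7. These shares were not counted over all tested genes. What these cells contributed to the called genes was not tested. Of 12 astrocyte markers 0 were called, with sums of 3446 to 4624 CPM in TA and 2231 to 4330 in the others, and 0 of 9 microglial, 12 blood vessel, 5 fibroblast, 8 interneuron and 4 red cell markers were called. The counts of these 6 lists at an unadjusted p under 0.05 were 3 (astrocyte), 0, 2, 1, 0 and 0, where 1767 of all tested genes (12.3%) had one, and DESeq2 called 0 of their markers and limma voom 1, an astrocyte marker.

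**Figure D4:**
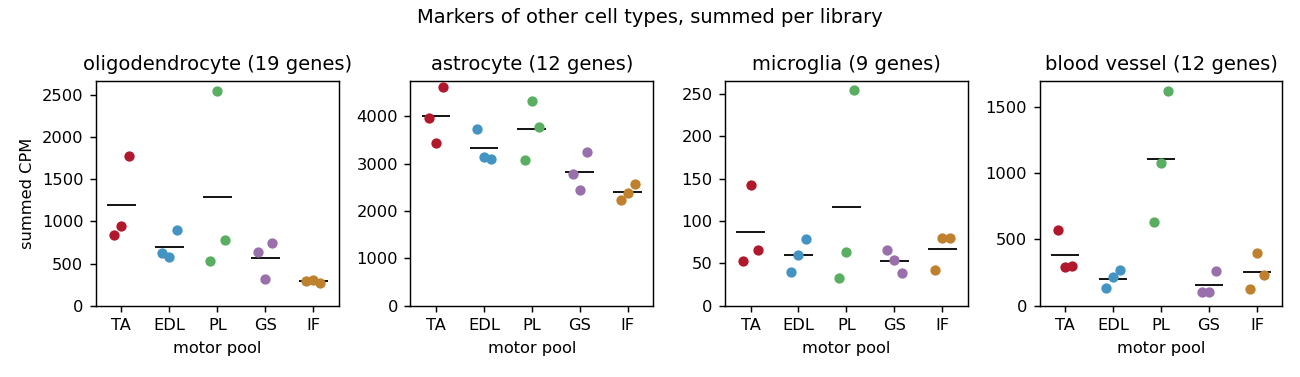
Summed CPM (vertical axis, from 0) of the tested markers of 4 other cell types for each motor pool (horizontal axis); each point is 1 library and each bar the mean of 3. The oligodendrocyte sums of TA run from 839.9 to 1781 CPM, with PL 2 higher at 2552, and the blood vessel sums are highest in PL.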

How the data were processed

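Amplified cDNA of the 15 libraries (Ovation V2 kit) was tagged by Nextera, which marks no strand, and sequenced single-end, per the labels' protocols. The deposited gene table holds unnormalized read counts, and the submitters' processing notes name Bowtie 0.12.9 and mm9. No source used here names the gene counter. The table held 36814 genes, 16357 without a read. Some deposited count columns also hold other values, 16 cells below 0 in 4 genes with no reason given, and these genes were dropped. The deposited lists of 2 pools hold a ratio (fold), a signal per pool, and p-values, from DESeq per the submitters' processing notes. The scale of this signal differs between lists. Hs3st4 had 49 reads in the TA libraries together, and its TA signal was 49 with PL, 59.25 with EDL, 50.45 with GS and 18.74 with IF. With PL, the signals of Sst (15743 in TA, 1242 in PL) also equal its reads summed over the libraries of a pool.

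Genes were kept by filterByExpr (minimum count 10), leaving 14340, and fitted with edgeR 4.0.16 in R 4.3.3 (TMM, quasi-likelihood F-test, 1 coefficient per pool, common dispersion 0.789, prior degrees of freedom 8.44). TA was set against the mean of the 4 other coefficients and against each. The SE of a log2 fold change is its size divided by the root of F, and adjusted p-values are Benjamini-Hochberg values with a threshold of 0.05. Fitted folds of genes with a pool without reads depend on the prior count and are given no size. Intervals are exact 95% ones of the reads and cover counting error only. No pair of libraries of 1 pool agreed within counting noise (chi-square at least 11.5 times its degrees of freedom). The pipeline was tested on simulated data. Alternatives were DESeq2 1.42.0, limma 3.58.1 (voom), other scalings, filters and contrasts, a replicate block and libraries left out.

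Genes were named by rule: the called genes with TA libraries apart from the 12 others, ranked by size of change (up to 15 each way), 4 marker genes, called members of gene lists (up to 4 each) or else the 2 smallest p, all tested relaxin, Vstm2 and IgLON genes, genes called against all 4 pools, and up to 10 in all 4 deposited lists of genes higher in TA. Ncam2, Inhba, Vcan, Cd47, Pcp4l1, Dpp4, Pkhd1 and Fign, and markers quoted to check the label, fall outside it and were chosen after their values were seen. Clone names were only counted. The members and lists were chosen with earlier results of these data known.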

Additional observations from a re-analysis of the deposited data

How the results depend on the processing

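Of the 60 calls against the mean of the other pools, 4 were kept in every alternative and 45 were lost without at least 1 library. DESeq2 called 435 genes (147 higher, 288 lower; 56 of the 60), limma voom 111 (43), no low-count filter 492 (60), the fit without PL 2 and PL 3 236 (57), the mean without IF 28 (27) and a fit of TA against the 12 others as 1 group 8 (8). For EDL (13) the count was 210 by DESeq2, 55 by voom, 74 with no filter and 70 without PL 2 and PL 3. For PL (33) it was 1065 by DESeq2, 60 by voom, 545 with no filter, 55 with DESeq2 size factors in edgeR and 55 with a stricter filter. For GS (9) it was 172 by DESeq2, 14 by voom, 55 with no filter and 39 without PL 2 and PL 3, and for IF (90) 420, 251, 242 and 454. Leaving out single libraries gave 22 to 246 for the mean, 2 to 32 for EDL, 23 to 1800 for PL, 2 to 21 for GS and 36 to 188 for IF. The cause of these changes was not tested. Upper-quartile scaling moved the median log2 fold change of all genes from 0.06 to -0.05 for the mean, from 0.05 to -0.20 for IF, and to -0.11 for EDL and GS.

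With the replicate number as a block, the count was 33 for the mean (19 higher, 14 lower) and 4 for EDL, and 27, 10 and 78 for PL, GS and IF. Little sign that the numbers pair the libraries was seen: 1 of 30 same-numbered pairs had a correlation of deviations over 0.1 (median 0.00265). Among the 3 replicate numbers, the mean correlation with libraries of other pools was largest for the own number in 6 of 15 libraries. The check cannot show that no pairing exists, because a weak one could be hidden by the spread between libraries.

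The direction of 5 uncalled genes reversed: C1qc was at -0.96 by voom and -6.94 without TA 3 (3.05 without PL 1), Ntm at -0.086 without TA 1 (0.52 without TA 3), Hba-a1 at -1.03 without TA 2 (1.21 without TA 3), Itgam at -2.74 without TA 2 (4.85 without PL 3), and Dcn at 0.75 with EDL out of the mean. DESeq2 gave no adjusted p for 6 of the genes followed. Few reads limit the precision of Adrbk2 and Rxfp1, as their counting intervals show.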

Other observations

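The lists of Eph and semaphorin, neurotrophic and transmitter receptor genes held no call against the mean of the other pools in edgeR's quasi-likelihood test. Over all tested genes 52.7% lay above 0, with a median log2 fold change of 0.06, and 12.3% had an unadjusted p under 0.05. Of 39 tested Eph, ephrin, semaphorin and plexin genes 20 (51.3%) lay above 0, with a median log2 fold change of 0.20 and 8 at an unadjusted p under 0.05, while DESeq2 called 2, both lower, and limma voom 0. Sema3c, a secreted semaphorin, was at 53.6, 39 and 34.6 CPM in TA and 41.8 to 184 elsewhere (-1.47 ± 0.43), and the receptor Plxna3 at 1.19, 13.4 and 16.5 against 27.7 to 237 (-2.67 ± 0.80). All 3 TA libraries of Plxna3 lay below the 12 others. Of 21 tested neurotrophic genes 4 had an unadjusted p under 0.05, and DESeq2 and limma voom each called 1 higher and 1 lower. Hgf, a growth factor, was at 11.2, 34.7 and 20.0 CPM in TA with 1.64 in the median other library and up to 21.2 in PL 3 (3.78 ± 0.94), while Lifr, a cytokine receptor, was at 274, 160.4 and 265 CPM in TA, 205, 190.3 and 337 in GS and 1471, 1268 and 1438 in IF (-1.23 ± 0.28). Lifr overlapped with GS and was called lower in TA against PL (-1.84 ± 0.33) and IF (-2.58 ± 0.34), with Benjamini-Hochberg adjusted p = 0.0206 and 0.000835 in edgeR's test, but not against the mean (0.0678).

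Of 40 tested receptors of fast transmitters and modulators 26 (65%) lay above 0, with a median of 0.16 and 7 at an unadjusted p under 0.05, while DESeq2 called 1 higher and 1 lower and limma voom 1 higher. Gabrg3, a GABA receptor subunit, was at 445, 210.0 and 369 CPM in TA and up to 251 in GS 3 (1.69 ± 0.49). Grin2d, an NMDA receptor subunit, was at 271, 91.7 and 95.8 CPM in TA and at most 86.9 elsewhere (1.65 ± 0.46), its 3 TA libraries all above the 12 others though TA 2 and EDL 3 were close. Neither passed the Benjamini-Hochberg adjusted threshold of edgeR's test, with adjusted p = 0.17 and 0.152.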
